A study of Rattus norvegicus with 8 samples.

Results

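Genes of the skeletal muscle fibre were followed through rat sciatic nerve, spinal cord and cultured Schwann cells. The group was a list of 41 gene names. Of these, 38 had a value in the authors' deposited table, out of 12760 genes with one; Ryr1, Tcap and Ldb3 are only named here. The members were chosen by what they are known for in muscle and with the log2 values of this table, nerve contrasts included, already in view, so the values below describe the list and nothing is tested on it. They were sorted by role into contractile filaments, Z disc, calcium handling, energy supply and regulators, and by fibre class into 12 fast, 6 slow and 2 developmental genes.

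The nerve samples came from adult female Sprague-Dawley rats whose left common sciatic nerve had been cut at mid-thigh. They were the proximal and the distal segment of the cut nerve and the contralateral right nerve, all on day 1, and the label of the right nerve speaks of a PBS injection site. The cord samples, of day 5, were a dorsal hemisection and a C-level control; their labels name an injection and the protocol an injury, and neither names the substance. RNA of 3 animals was pooled for every nerve or cord array. The primary Schwann cells came from sciatic nerves of Sprague-Dawley pups of postnatal days 1 to 3, were cleared of fibroblasts with AraC, a Thy1.1 antibody and complement, and were grown with serum, pituitary extract and forskolin. They were left unstimulated or given S100A8/A9, a protein complex abundant in neutrophils, at 5 µg/ml for 1 h or 24 h, and the unstimulated culture was that of 24 h.

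Each of the 8 groups had 1 array, so no difference has a replicate check and no test between groups was possible. Samples are named by the column headings of the value table; the raw scan whose ranks fit a column is filed with a different sample in every group but the distal nerve, and by that filing many directions turn, as given below. Values are the authors' log2 values, normalized between arrays, and a ratio is the difference of 2 of them. An error after ± is the technical spread between replicate spots of a probe, not between animals. Between 66.7% and 77.6% of the probes of an array were well above background by the scanner's flag. Where 1 of 2 arrays was not, the ratio is a bound, written "at least" or "at most". A gene is called 2-fold apart at a log2 ratio of 1 or more in size. Of the marker lists, that of neurons separated the labelled cord samples from the rest: neuron markers had median log2 values of 11.05 and 12.92 in the cord samples and of 4.11 to 5.12 elsewhere, while Schwann cell markers, several of which oligodendrocytes share, did not separate the tissues, with medians of 11.15 or more in all 8 samples.

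A skeletal muscle fibre contracts when calcium released from the sarcoplasmic reticulum binds troponin on the thin filament, which lets myosin of the thick filament pull on actin. Fast and slow fibres use different genes for the same parts, so that myosin heavy chains, myosin light chains and the troponin subunits each exist in a fast and a slow form, and embryonic and perinatal heavy chains come first in development. The sciatic nerve runs between thigh muscles and carries the axons that drive the leg, but its own sheath holds Schwann cells, fibroblasts, vessels and fat, and it is not known to hold muscle fibres. In bulk tissue fewer cells of a type and less RNA per cell cannot be told apart.

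The proximal segment stood far above the other nerve samples. All 38 genes were well above background there, against 32 in the distal segment, 29 in the contralateral nerve, 34 in the dorsal hemisection, 33 in the C-level cord and 18 to 20 in the cultures. Against the contralateral nerve 33 of 38 were at least 2-fold higher in the proximal segment and 1 was lower, where 11.2% of all genes were higher and 12.0% lower. The median log2 ratio was 3.25 for the muscle genes and 0.00 for all 12119 genes measured. For 9 of the genes only the proximal array was above background, so that their ratios could not have been low; of the 29 above background on both arrays, 25 were at least 2-fold higher and 1 lower. The rule used this contrast, so neither count is evidence for it. With scans taken as filed, none was higher and 26 of 34 were lower. By rank, those scans fitted the columns headed Schwann cells S100A8/A9 1 h and cord dorsal hemisection. By the headings, ratios of scans as filed thus compare other samples than named, here and below.

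**Figure D1:**
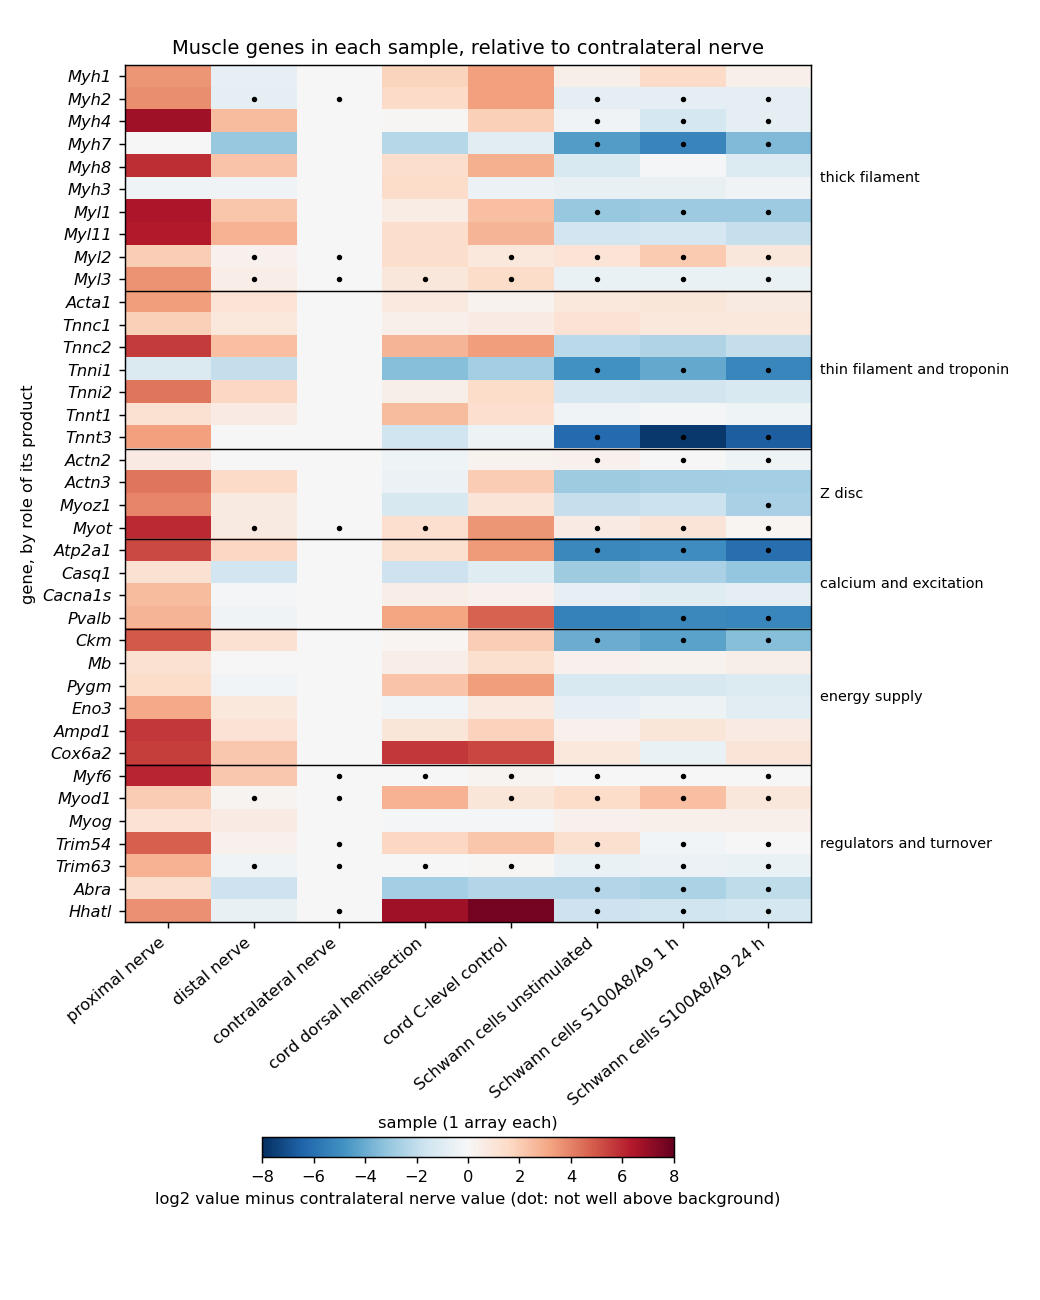
Heat map of 38 muscle genes (rows, by role) in 8 samples (columns), as log2 value minus that of the contralateral nerve, with dots where the probe was not well above background. The proximal column is above 0 for 35 genes, and the cultures hold most of the dots.

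The fast heavy chain Myh4 and the fast light chains had the 3 highest proximal ratios of the list. Myh4, the heavy chain of the fastest fibres, had log2 values of 11.24 in the proximal, 7.01 in the distal and 4.47 in the contralateral nerve, 4.57 in the dorsal hemisection and 6.34 in the C-level cord. It was not well above background in any culture. Its proximal ratio to the contralateral nerve was 6.77 ± 0.59, the highest of all members, and its distal ratio 2.54 ± 0.60. Myl1, a fast essential light chain, followed the same order with 11.45, 7.17 and 4.98 in the 3 nerve samples and 5.56 and 7.40 in the hemisection and C-level cord, and a proximal ratio of 6.47 ± 0.59. Myl11, the fast regulatory light chain, stood at 14.14, 10.56 and 7.78 in nerve and at 9.19 and 10.52 in cord. Its ratios were 6.36 ± 0.13 proximally and 2.78 ± 0.13 distally, so that the distal segment, too, was above the contralateral nerve for these 3 genes.

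The other fast heavy chains were high only proximally within the nerve. Myh1, of type IIX fibres, had 9.96 in the proximal, 5.77 in the distal and 6.43 in the contralateral nerve, and with 9.69 the C-level cord was almost as high as the proximal segment. Its distal ratio to the contralateral nerve was -0.66 ± 0.26 against 3.53 ± 0.24 proximally. Myh2, of type IIA fibres, was above background in the proximal nerve (6.23), the dorsal hemisection (4.02) and the C-level cord (5.82), and not in the distal or contralateral nerve, which put its proximal ratio at 3.24 or more. A second Myh2 probe was above background in none of the 5 nerve and cord samples. The heavy chain genes Myh1, Myh2, Myh3, Myh4 and Myh8 all lie on chromosome 10 and are much alike in sequence, and whether their probes tell each other's transcripts apart was not tested.

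Fast troponins behaved like the light chains. Tnnc2, the fast calcium-binding subunit, had 14.26, 11.04 and 8.64 in the proximal, distal and contralateral nerve, and 11.37 and 11.97 in the hemisection and C-level cord. Tnni2, the fast inhibitory subunit, had 13.67, 11.04 and 9.41 in nerve and 9.90 and 10.90 in cord, with 7.96 to 8.18 in the cultures. Their proximal ratios were 5.62 ± 0.09 and 4.25 ± 0.09. Tnnt3, the fast subunit that anchors troponin to tropomyosin, differed from them, since the distal segment (9.38) and the contralateral nerve (9.37) were level while the proximal segment was at 12.63. In the cord it had 7.79 and 8.97, below both of those nerve samples, and it was not above background in the cultures.

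Of the remaining fast genes, Actn3, the fast-fibre α-actinin of the Z disc, had 12.84, 10.05 and 8.54 in nerve and 8.07 and 10.59 in the hemisection and C-level cord. Atp2a1, the calcium pump of fast fibres, had 13.13, 9.46 and 7.82 in nerve and 9.13 and 11.21 in cord, with no culture above background. Casq1, the calcium store protein of the reticulum, went another way: it was at 11.38 in the proximal, 8.66 in the distal and 10.18 in the contralateral nerve, so that it was 1.20 ± 0.09 higher proximally and -1.52 ± 0.09 distally. Its second probe gave 1.25 and -1.49. Pvalb, a calcium buffer of fast fibres and of some neurons, is described with the cord. All 12 fast genes were at least 2-fold higher in the proximal than in the contralateral nerve, with ratios from 1.20 to 6.77 and a median of 4.28. Over all genes 11.2% were higher, and the list was chosen with this contrast in view.

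Slow genes did not share this span. Myh7, the slow and cardiac heavy chain, had 6.91 in the proximal and 6.96 in the contralateral nerve and only 3.95 in the distal segment, with 4.70 in the hemisection and 6.06 in the C-level cord. The proximal ratio was -0.05 ± 0.17 and the distal ratio -3.01 ± 0.34, the lowest of all members in that comparison. Tnni1, the slow inhibitory troponin, was highest of all samples in the contralateral nerve (7.92), followed by the proximal (6.75) and the distal segment (6.02), the C-level cord (5.19) and the hemisection (4.55). Its ratios were -1.17 ± 0.16 and -1.90 ± 0.15, and it was the 1 member at least 2-fold lower in the proximal segment. Neither gene was above background in a culture.

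The other slow genes gave a mixed picture. Tnnc1, the slow and cardiac troponin C, had 9.41, 8.34 and 7.50 in the proximal, distal and contralateral nerve and 7.92 and 8.13 in cord, but the cultures, at 8.33 to 8.66, were above the contralateral nerve too. Tnnt1, the slow tropomyosin-binding troponin, had 9.35, 8.84 and 8.16 in nerve, was highest in the dorsal hemisection (10.71) and had 7.80 to 8.10 in cultures. Myl2 and Myl3, the light chains of slow and cardiac muscle, were close to the floor: Myl3 was above background only in the proximal nerve (5.73), and Myl2 there (4.21) and in the hemisection (3.68). The proximal ratio was at least 2.74 for Myl3 and at least 1.22 for Myl2. In all, 4 of 6 slow genes were at least 2-fold higher in the proximal than in the contralateral nerve and 1 was lower (median 1.21, but 0.57 for the 4 above background on both arrays and 0.44 with normexp background correction). Beside them, 11.2% of all genes were higher and 12.0% lower, and the list was chosen with this contrast in view. Genes outside the list with slow or cardiac products had their own orders: Mybpc1, the slow myosin-binding protein C, was at 7.33, 4.05 and 6.54 in the proximal, distal and contralateral nerve, the cardiac heavy chain Myh6 at 7.62, 5.11 and 7.46, and the cardiac troponin Tnnt2 at 11.54, 10.64 and 12.35. Myh6 and Myh7 are near-identical in sequence, and their probes may share signal.

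The developmental heavy chains went apart. Myh8, the perinatal form, had 14.19 in the proximal, 10.60 in the distal and 8.29 in the contralateral nerve, 9.69 in the hemisection and 11.13 in the C-level cord, and 7.07 to 8.22 in cultures. Its proximal ratio was 5.90 ± 0.09. Myh3, the embryonic form, had 5.67, 5.72 and 6.03 in the same 3 nerve samples, a proximal ratio of -0.36 ± 0.26, and its highest value in the dorsal hemisection (7.53), with the C-level cord at 5.53. Its second probe was -0.90 in the proximal and 1.74 in the hemisection comparison, the same signs as the first. That probe had spot errors of 0.47 in the proximal and 0.83 in the contralateral nerve, so the sign of its proximal ratio is uncertain.

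**Figure D2:**
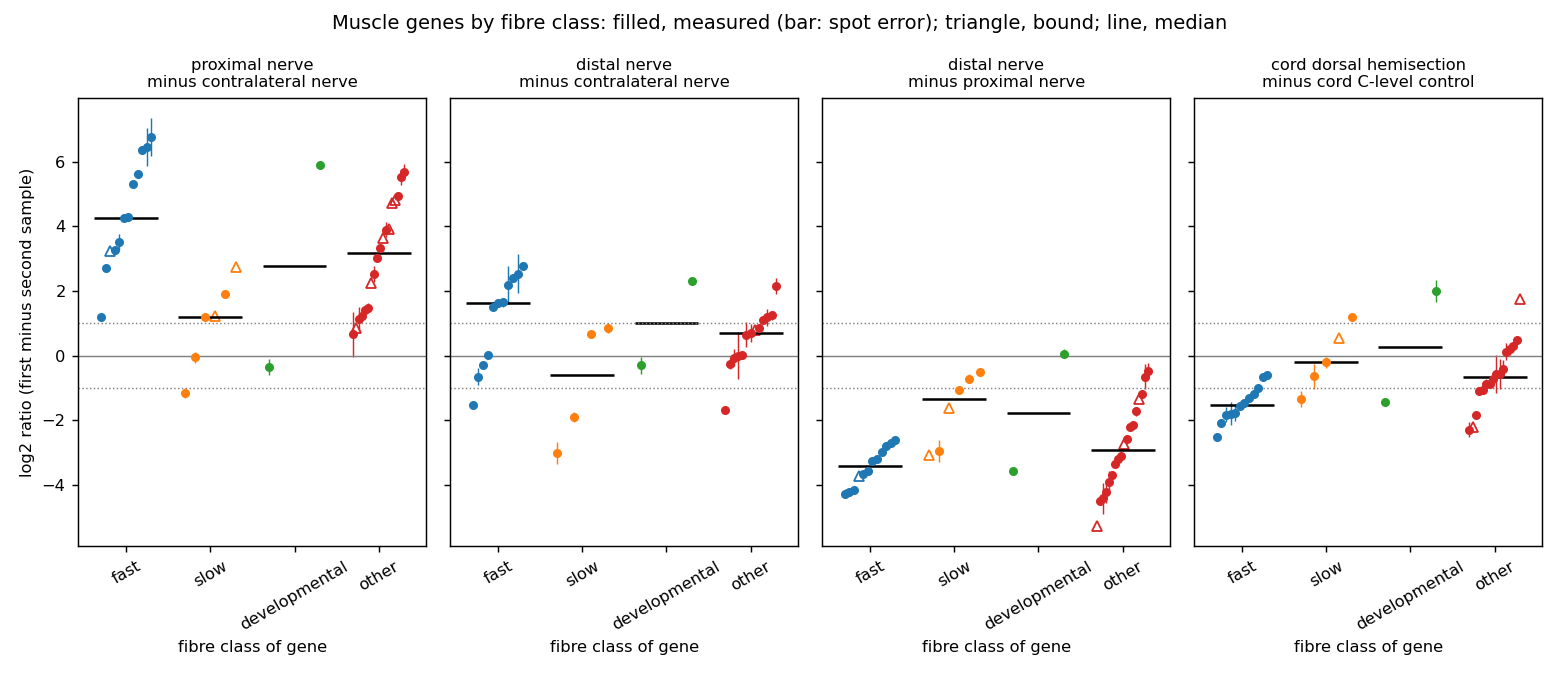
Log2 ratios of the measured muscle genes in 4 comparisons, by fibre class, with spot error bars on measured ratios, triangles for bounds, a black line at the median and dotted lines at 2-fold. In the proximal comparison the fast median is 4.28 and the slow median 1.21; in the distal comparison they are 1.63 and -0.61.

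To show promoters of genes high and not high in the proximal segment, the 250 bases before the RefSeq start are shown for the fast gene Myh4 and for Ckm, muscle creatine kinase, which is in no fibre class, both high in the proximal segment, and for the slow genes Tnni1 and Myh7, which were not higher there than in the contralateral nerve. Sequences are from RefSeq (build GRCr8), 5′ to 3′ on the gene's strand, with the E-box CANNTG, the letters bound by myogenic factors such as Myod1, and TATAAA on either strand in capitals. They lie at chr10:52421898-52422147 (+), chr1:88189211-88189460 (+), chr13:49781279-49781528 (+) and chr15:32438195-32438444 (-).
Myh4: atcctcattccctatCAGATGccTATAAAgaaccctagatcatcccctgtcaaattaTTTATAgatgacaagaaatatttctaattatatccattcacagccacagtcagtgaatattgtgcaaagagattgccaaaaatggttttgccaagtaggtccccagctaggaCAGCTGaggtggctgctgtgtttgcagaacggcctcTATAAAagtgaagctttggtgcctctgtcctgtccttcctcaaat
Ckm: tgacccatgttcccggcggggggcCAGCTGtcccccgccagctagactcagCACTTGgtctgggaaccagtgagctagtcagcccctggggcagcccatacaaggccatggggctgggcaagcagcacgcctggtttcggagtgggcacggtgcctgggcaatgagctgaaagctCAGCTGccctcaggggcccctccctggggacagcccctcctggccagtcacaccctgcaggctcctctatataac
Tnni1: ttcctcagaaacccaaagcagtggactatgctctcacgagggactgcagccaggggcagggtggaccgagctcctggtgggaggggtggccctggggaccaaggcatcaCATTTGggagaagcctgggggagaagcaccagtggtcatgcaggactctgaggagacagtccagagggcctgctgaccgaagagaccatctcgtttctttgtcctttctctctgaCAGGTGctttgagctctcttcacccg
Myh7: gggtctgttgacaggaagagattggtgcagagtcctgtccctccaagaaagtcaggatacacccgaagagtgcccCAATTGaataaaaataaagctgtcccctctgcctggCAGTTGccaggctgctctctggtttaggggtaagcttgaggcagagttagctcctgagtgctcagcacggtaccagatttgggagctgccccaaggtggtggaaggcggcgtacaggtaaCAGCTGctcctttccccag

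All 4 promoters held 2 or 3 E-boxes, and only that of Myh4 held TATAAA, 3 times. Of the 41 listed genes, 34 had a promoter in the RefSeq table, with 35 starts. The E-box CANNTG was in 85.7% of these starts and in 65.5% of all 33469 promoters of this length. Its form CAGCTG, which is one case of CANNTG, was in 34.3% against 12.0%, TATAAA in 37.1% against 12.9% and the MEF2 consensus in 20.0% against 2.96%. Both strands were searched. By class, CAGCTG was in 33.3% of 12 fast starts and in 1 of 4 slow ones. A match describes letters only and shows no binding.

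Actin and the Z disc genes differed among themselves. Acta1, skeletal α-actin, had 12.12, 9.90 and 8.80 in the proximal, distal and contralateral nerve, 9.58 and 9.10 in the hemisection and C-level cord, and 9.55 to 9.75 in the cultures, so that every culture was above the contralateral nerve. Its proximal ratio was 3.32 ± 0.09. Actc1, the cardiac and embryonic actin with an almost identical sequence, had a ratio of 1.10, and the signal of both may overlap. In the Z disc Myot, myotilin, was above background only in the proximal nerve (7.82) and the C-level cord (5.36), which gave a ratio of at least 4.83. Myoz1, which binds calcineurin at the Z disc, had 10.63, 7.42 and 6.72 in nerve. Actn2, the α-actinin of all fibres, had 4.54, 3.88 and 3.89 there and a ratio of 0.65 ± 0.69, within its spot error.

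Genes of energy supply were all at least 2-fold higher in the proximal than in the contralateral nerve, 6 of 6, beside 11.2% of all genes. They, too, were listed with this contrast in view. Ckm had 12.23, 8.54 and 7.30 in nerve, 7.44 and 9.27 in the hemisection and C-level cord, and no culture above background; its ratios were 4.94 ± 0.13 proximally and 1.25 ± 0.13 distally. Ampd1, the AMP deaminase of muscle, had 11.33, 6.82 and 5.64, Cox6a2, a muscle subunit of cytochrome oxidase, 11.55, 8.18 and 6.02, and Eno3, muscle enolase, 12.86, 10.69 and 9.84. Pygm, which breaks down glycogen, and the oxygen store Mb, myoglobin, had smaller ratios of 1.49 ± 0.13 and 1.22 ± 0.09. Mb was at 9.75 to 9.95 in the cultures, above the 9.47 and 9.45 of the distal and contralateral nerve.

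Among regulators, Myf6, the myogenic factor kept by adult fibres, was above background in 2 of the 8 samples, the proximal (7.71) and the distal nerve (3.79). Its ratio to the contralateral nerve was at least 4.72 proximally and at least 0.81 distally. Myog, the factor of differentiation and denervation, was at 6.11 to 7.43 in all 8 samples, with a proximal ratio of 1.13 ± 0.38. Myod1, the factor of early commitment, was above background in the proximal nerve (3.84) and in the dorsal hemisection (4.58) only, with bounds of 0.85 or more in the proximal and 1.76 or more in the cord comparison. Trim63, a ubiquitin ligase of muscle wasting, was above background in the proximal nerve alone (5.24), and Trim54, its sarcomeric relative, had 6.93 there against 2.50 in the distal segment. Abra, an actin-binding activator of growth genes, resembled Casq1: it had 7.99, 4.89 and 6.57 in nerve and ratios of 1.42 ± 0.12 proximally and -1.68 ± 0.13 distally. Cacna1s, the voltage sensor of the tubules, had 8.57, 5.99 and 6.05.

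The distal segment asked how much of this was present beyond the cut. Of 30 genes measured against the contralateral nerve 12 were at least 2-fold higher and 4 lower, beside 13.5% and 14.4% of all genes (27.9% in either direction), with a median of 0.75 against 0.01. The 12 higher were fast or perinatal filament genes (Myh4, Myh8, Myl1, Myl11, Tnnc2, Tnni2), Acta1, Actn3, Atp2a1, Ckm, Ampd1 and Cox6a2, and the 4 lower were Myh7, Tnni1, Casq1 and Abra. By class, 7 of 11 fast genes were higher and 1 lower (median 1.63), and none of 4 slow genes was higher and 2 were lower (median -0.61, but 0.42 over 6 genes with no filter on dim probes). No test can say whether the classes differ. With scans taken as filed, 8 genes were higher and 13 lower.

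Set directly against each other, the distal segment was at least 2-fold below the proximal for 33 of 38 genes and above it for none, where 1.94% of all genes were lower and 1.24% higher. For 6 of the 38 only the proximal array was above background, so that their ratios could not have been high. Of the 32 above background on both arrays, 27 were lower and none higher. This comparison shares the proximal array with the first and is not independent of it. The list was chosen with the nerve contrasts in view, so no count or rank here is evidence for it. The 12 fast genes lay close together, from -4.28 to -2.62, with Myh2 as a bound, although their ratios to the contralateral nerve ranged over far more. The 5 genes within 2-fold were Myh3 (0.05 ± 0.14), Myog (-0.48 ± 0.24), Tnnt1 (-0.51 ± 0.08), Actn2 (-0.66 ± 0.39) and Tnni1 (-0.73 ± 0.14). Among the 100 lowest ratios of all 12188 genes were 29 members and 18 genes of a list of other muscle genes. Of the genes 2-fold apart over all genes 38.9% were higher, and 24.3% when the matched scans were scaled to the 75th percentile and 22.6% with normexp; the members lower numbered 33 and 28 there. With scans taken as filed 19 members were higher and 1 lower.

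Over the 3 nerve samples, 25 genes had the order proximal, distal, contralateral, 10 had proximal, contralateral, distal, and 3 were highest in the contralateral nerve (Myh7, Tnni1 and Myh3). These counts rank values as listed. The order of the distal and contralateral nerve was not measured for Myl2, Myl3, Myod1, Myot, Myh2 and Trim63, above background in neither, nor for Hhatl and Trim54, whose contralateral value was not above background and whose distal value lay under that array's lowest value above background. The 10 included Casq1, Abra, Myh1, Pvalb and Pygm. The contralateral nerve itself was listed above all 3 cultures for 25 of 38 genes, dim values included. Its lead over cultures that lacked signal was wide for Tnnt3, at 9.37 against 1.65 to 3.18, for Atp2a1, at 7.82 against 1.78 to 2.88, and for Tnni1, at 7.92 against 2.73 to 3.82.

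Other genes of muscle moved in part with the members. Of 57 further muscle genes 43 had values, and 23 were at least 2-fold higher and 3 lower in the proximal than in the contralateral nerve (median 1.18). For 11 of the 43 only the proximal array was above background, so that these ratios could not have been low. They are part of the count and of the median. Over all genes 11.2% were higher and 12.0% lower. The highest were Klhl41, which stabilises the sarcomere (at least 4.64), Cav3, the muscle caveolin (at least 4.55), and Trdn, triadin of the calcium release complex (4.14). Among the lower were Myom2, an M-band protein (-1.99), and the phosphofructokinase subunit Pfkm (-1.32). Tropomyosins, which other cells share, stayed within 2-fold on the probes used, with Tpm1 at -0.40, Tpm2 at -0.48 and Tpm3 at 0.89. A second, dimmer Tpm3 probe was more than 2-fold higher proximally, at 6.74 against 5.24 in the contralateral nerve. A second Tpm1 probe was at 13.50 and 13.02, the opposite direction to the first.

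Genes listed as responsive to denervation in muscle were mostly level. Of 10 with a value, 2 were at least 2-fold higher proximally, Ankrd1 (3.29) and Runx1 (1.18), and Ncam1 was lower (-1.06). These counts lay near the shares over all genes, 11.2% higher and 12.0% lower. The acetylcholine receptor subunits Chrna1, Chrnb1 and Chrne had ratios of 0.06, 0.02 and 0.14, and Chrng at least 0.13. Gadd45a was at 0.44 and Fbxo32 at -0.47. Muscle stem cell markers were not 2-fold higher either, 0 of 4 measured, with Pax3 at 0.07, Cdh15 at 0.05 and Myf5 at -0.26.

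Markers of other tissues beside or within the nerve were read in the same way, beside 11.2% of all genes higher and 12.0% lower. Adipocyte markers went opposite to muscle, with 7 of 8 at least 2-fold lower in the proximal than in the contralateral nerve (median -1.35) and a summed linear level of 98073 against 207010; Adipoq was at 13.10 and 14.48, and Pck1 at -4.22. Of 8 smooth muscle markers 2 were higher, Actg2 (3.08) and Des, desmin, which skeletal fibres also express (1.37), and 3 lower, Myh11 at -1.47 among them. The summed level of smooth muscle markers was 25021 in the proximal and 30524 in the contralateral nerve. Of the cardiac markers, 6 were measured, with Nppb at least 6.38, Actc1 at 1.10 and Tnnt2 at -0.81; Tnni3 and Nppa were not above background in any nerve sample. Of 5 tendon markers 1 was higher, Tnmd (1.07), with at most -2.32 in the distal segment, and 2 lower, Scx (-1.83) and Fmod (-1.996). Schwann cell markers were lower, 6 of 10 by 2-fold (median -1.43), with Prx at -1.48 and S100b at -1.63. Neutrophil markers were higher, 7 of 8 (median 4.53), led by S100a8 at 7.89. The summed level of the muscle genes was 134793 in the proximal, 16636 in the distal and 8702 in the contralateral nerve. The part of these other cells in the muscle values was not tested.

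**Figure D3:**
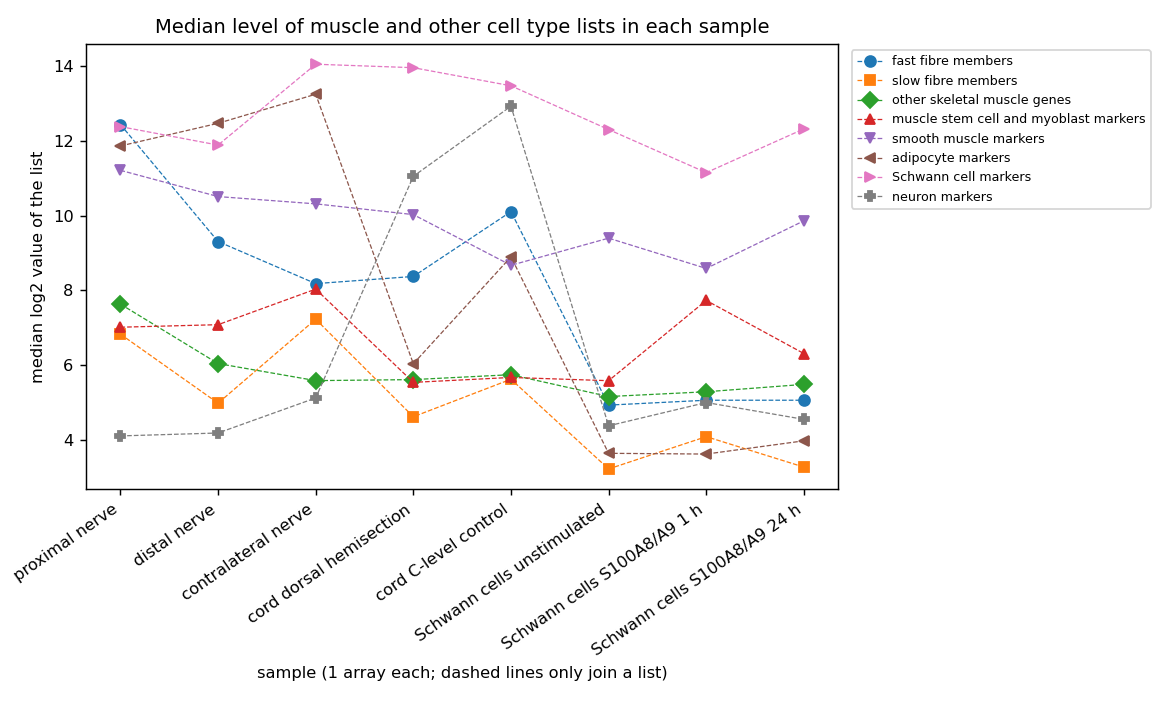
Median log2 value of 8 gene lists in each of the 8 samples; levels are to be read along a list, not between lists. Fast fibre genes peak in the proximal nerve (12.4), while adipocyte and Schwann cell markers peak in the contralateral nerve (13.2 and 14.0).

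In the spinal cord the C-level control held more of the fast genes than the dorsal hemisection. Of 35 muscle genes measured, 17 were at least 2-fold lower in the hemisection and 3 higher, beside 9.27% and 10.2% of all genes, with a median of -0.90 against -0.04. Of the 12 fast genes 10 were lower and none higher, from -2.53 for Actn3 to -0.60 for Tnnc2 (median -1.52). Of the 5 slow genes measured, Myh7 was lower (-1.36 ± 0.25) and Tnnt1 higher (1.20 ± 0.07). Of these fast genes Atp2a1 was at -2.09 ± 0.07 and Myl1 at -1.83 ± 0.23, and outside the fibre classes Myoz1 was at -2.30 ± 0.23 and Ckm at -1.83 ± 0.10. The 3 higher were Myh3 (1.997 ± 0.34), Tnnt1 and Myod1 (at least 1.76). With normexp background correction 8 were lower and 2 higher, and with scans taken as filed none of 19 was in either direction.

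Other tissues differed between the cord samples as well, beside 9.27% of all genes lower and 10.2% higher in the hemisection. Neuron markers were at least 2-fold lower in the hemisection for 7 of 9 (median -1.82), with a summed level of 40532 against 114598, and adipocyte markers for 6 of 8 (median -2.67), with Adipoq above background in the C-level cord (9.31) and not in the hemisection. Cfd alone was higher in the hemisection (1.68), and the summed level of the adipocyte list was 8860 there and 8384 in the C-level cord. Of the Schwann cell markers 4 of 10 were higher in the hemisection, with Prx at 2.73. Smooth muscle markers were higher for 4 of 8, with Actg2 at 3.35. Their part in the muscle values was not tested, and region, lesion and dissection cannot be told apart in 1 pool each.

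Of the 5 nerve and cord samples, the hemisection was highest for 4 members, Cox6a2 and Tnnt1 among them, and the C-level cord for 4. Pvalb was at 12.67 in the hemisection and 14.25 in the C-level cord, against 12.23, 9.23 and 9.52 in the proximal, distal and contralateral nerve, and at 4.14 to 4.34 in the cultures, where only the unstimulated one was above background. Hhatl, a relative of the hedgehog acyltransferase that is known from heart and muscle, was at 10.19 and 11.06 in cord and at 7.06 in the proximal nerve. Pygm was at 9.48 and 10.57, and Cox6a2 at 11.68 and 11.37 beside 11.55 in the proximal nerve. In Pvalb, Pygm and Hhatl the C-level cord was the higher of the cord samples, in Cox6a2 the hemisection by 0.30 ± 0.06. Set against the C-level cord, the contralateral nerve was at least 2-fold lower for 21 of 33 muscle genes and higher for 2, Tnni1 (2.73 ± 0.35) and Abra (2.32 ± 0.25), beside 18.4% and 19.8% of all genes.

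**Figure D4:**
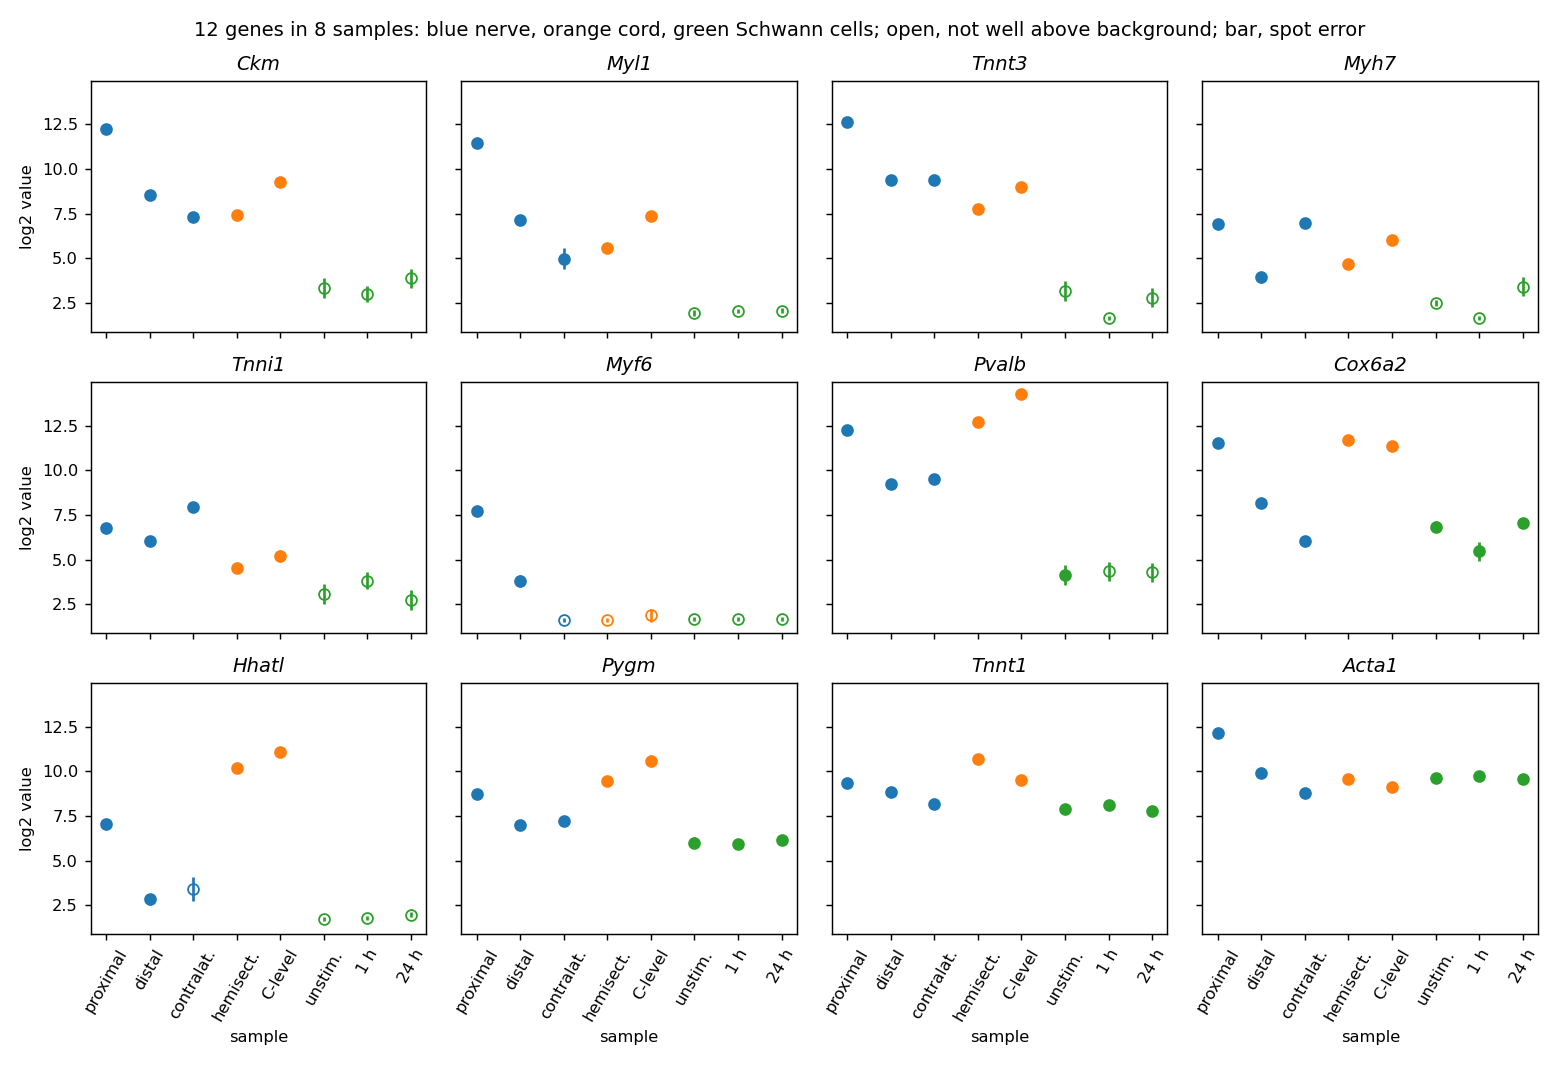
Log2 values of 12 muscle genes in the 8 samples, with spot error bars and open points where the probe was not well above background. Ckm and Myl1 peak in the proximal nerve, Tnni1 in the contralateral nerve and Pvalb and Hhatl in cord, while Acta1 is at 9.55 to 9.75 in the cultures.

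The cultured Schwann cells were taken as samples without muscle tissue, which was not tested. Of 38 genes 18 to 20 were above background in a culture, and 18 were so on all 8 arrays, among them Acta1, Mb, Eno3, Tnnc1, Tnnt1, Tnni2 and Myog. With S100A8/A9 for 1 h, 2 of 19 measured genes were at least 2-fold higher, Myh8 (1.15 ± 0.15) and Myh1 (1.08 ± 0.33), and Cox6a2 was lower (-1.37 ± 0.62), beside 1.7% and 1.35% of all genes (3.05% in either direction). At 24 h none of 19 was 2-fold apart, beside 0.637% of all genes higher and 0.628% lower (1.26% in either direction), and the ratios ran from at most -0.70 to 0.33. The unstimulated culture of 24 h served both times, so the 1 h values also carry the difference in time.

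In all, 10 genes outside the list were closest in pattern to the mean of the members over the 5 nerve and cord samples, among 8217 genes that spanned at least 2-fold there. They were Sypl2 (Pearson r = 0.99 over 5 samples), Art1, Stac3, Nrap, Cyp26a1, Asb11, Ppp1r3a, Ckmt2, Dusp9 and Klhl31 (0.93), and 5 of them stood on the list of other muscle genes. A second, dimmer Sypl2 probe did not show the pattern, with 3.82, 3.46 and 3.78 in the proximal, distal and contralateral nerve. In the contralateral nerve and in cord it was not above background. Art1, a muscle ADP-ribosyltransferase, was at 8.27 in the proximal, 3.08 in the distal and 2.44 in the contralateral nerve and at 4.48 and 4.63 in cord. Cyp26a1, which degrades retinoic acid and is not a muscle marker, had a smaller span of 7.11, 5.97 and 5.55 in nerve.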

How the data were processed

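Total RNA was measured on 8 one-colour Agilent arrays, 1 per group, on 1 slide. The authors' deposited value table holds log2 values of 24894 probes, normalized between arrays by a method that no source used here names. The scanner files hold spot intensity (Feature Extraction 10.7.3.1, build rn4, per the file headers; the submitters' processing notes name Agilent Feature Extraction 10.5). Each column was matched to the scan with the same ranks (Spearman rho 1 across probes, rounded), which gave background flags and spot errors. Samples were named by column heading, and scans as filed were an alternative.

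Accessions were matched to RefSeq symbols (GRCr8): 15207 of 24894 probes, 12760 symbols. A gene took its probe with the highest mean. Genes not well above background on either array were left out. A bound used the higher of the gene's own value on the dim array and the lowest value of any probe above background there. Every member was to be named or counted, with the 3 highest and lowest of other lists in the proximal comparison. Some genes of these lists are not reported here. Members and lists were chosen with earlier results of these data known. Alternatives used limma 3.58.1 (normexp, offset 50, on median signals in place of the mean signals planned). The number of arrays limits precision. Python 3.11.15 and R 4.3.3 were used.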

Additional observations from a re-analysis of the deposited data

Results flagged for a closer look

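Casq1 and Abra were at least 2-fold apart from the contralateral nerve in opposite directions in the proximal and distal segments. Casq1 was at 1.20 proximally and -1.52 distally, and Abra at 1.42 and -1.68. They were singled out because the 2 segments moved opposite ways; with 1 sample each the difference was not tested, and both ratios share the contralateral array.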

How the results depend on the processing

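Which scan belongs to which sample decided the most. By rank, the scans filed as proximal and contralateral nerve fitted the columns headed Schwann cells S100A8/A9 1 h and cord dorsal hemisection. Those filed as the hemisection and the C-level control fitted the unstimulated and S100A8/A9 24 h cultures, with neuron marker medians of 4.38 and 4.55. The scan filed as the S100A8/A9 24 h culture fitted the C-level column, with a neuron marker median of 12.92. By the headings, ratios of scans as recorded thus compare other samples than named. With the scans as recorded, members at least 2-fold higher and lower numbered 0 and 26 in the proximal, 8 and 13 in the distal, 19 and 1 in the distal minus proximal and 0 and 0 in the cord comparison. The fast medians were then -3.11, 0.63 and 4.55 in the 3 nerve comparisons, and the slow medians -2.22, -1.37 and 1.00. Of members 2-fold apart by the headings and measured both ways, most took the opposite sign in the proximal and the distal minus proximal comparisons. In the proximal comparison this held for 28 of 30, with log2 ratios then of Abra -1.34, Actn3 -3.10, Ampd1 -0.84, Atp2a1 -6.16, Cacna1s -2.65, Casq1 -1.46, Ckm -4.73, Cox6a2 -6.74, Eno3 -0.32, Hhatl -7.14, Mb -0.30, Myh1 -0.76, Myh2 -1.71, Myh4 -2.24, Myh8 -1.72, Myl1 -3.12, Myl11 -3.26, Myl2 -0.85, Myog -0.49, Myoz1 -1.73, Pvalb -8.96, Pygm -4.09, Tnnc1 -0.059, Tnnc2 -5.50, Tnni2 -2.22, Tnnt1 -2.81, Tnnt3 -5.03 and Trim54 -1.49. In the distal comparison this held for 5 of 16, with log2 ratios then of Abra 0.34, Ampd1 -0.19, Cox6a2 -3.39, Tnnc2 -0.27 and Tnni1 0.78. In the distal minus proximal comparison this held for 23 of 25, with log2 ratios then of Abra 1.67, Acta1 0.18, Actn3 4.83, Ampd1 0.64, Atp2a1 6.42, Cacna1s 1.60, Casq1 1.45, Ckm 5.53, Cox6a2 3.36, Eno3 1.35, Myf6 0.84, Myh4 3.98, Myh7 0.99, Myh8 2.57, Myl1 4.12, Myl11 4.55, Myoz1 3.09, Pvalb 5.66, Pygm 1.55, Tnnc1 0.22, Tnnc2 5.23, Tnni2 3.33 and Tnnt3 6.34. In the cord comparison this held for 5 of 10, with log2 ratios then of Eno3 0.27, Myh1 0.038, Myh3 -0.34, Myl11 0.38 and Myoz1 0.78. With normexp no member was lower in the proximal and 8 were lower in the cord comparison, the slow medians were 0.44 (proximal) and -0.62 (distal minus proximal), and the fast medians 1.02 (distal) and -3.13 (distal minus proximal). With both arrays above background the slow proximal median was 0.57 and the fast distal minus proximal median -3.26, and with the mean of probes the latter was -3.24. With no filter or bound the slow medians were 1.55 proximally and 0.42 distally. At 4-fold, 25 members were higher and 0 lower proximally, 6 and 1 distally, and 0 and 4 in cord. Scaling the matched scans to the 75th percentile, with the table's probes or with all probes, kept every count within 1.5 times. Ratios of single members were added to the alternatives after seeing the data; under the 6 that keep the headings no member 2-fold apart changed sign, and with normexp 7 members fell below 2-fold in the proximal, 4 in the distal, 5 in the distal minus proximal and 10 in the cord comparison. No paired analysis was possible because each group had 1 sample. Dim probes give bounds only.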
